A study of Mus musculus with 6 samples.

Results

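Plasma cell genes are the subject here: *Jchain*, *Mzb1*, *Sdc1*, *Prdm1*, *Xbp1*, *Tnfrsf17*, *Tnfrsf13b*, *Irf4*, *Pou2af1* and *Derl3*, 10 of the 53458 genes to which the quantified transcripts map. They were chosen by name, as genes that mark plasma cells or serve antibody secretion, with earlier results of these data known. All 10 were among the 22170 genes with enough reads to be tested. The samples were bone marrow cells from mice with acute myeloid leukemia (AML), sorted as live donor-derived cells without CD3, B220 or Ter119 on the surface, so that T cells, most B cells and erythroid cells were to be left out. RNA from 3 Cebpa-/p30 Tet2+/+ mice (mice 19, 23 and 24) was compared with RNA from 3 Cebpa-/p30 Tet2-/- mice (mice 5, 7 and 8), with 1 RNA-seq library per mouse. The comparison asks how loss of TET2, an enzyme that oxidizes methylated cytosine in DNA, goes with gene expression in AML that depends on p30, the short form of the myeloid transcription factor C/EBPα.

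Both groups were labelled as strain C57BL/6 (the donors were C57BL/6J), and both carried 1 *Cebpa* allele that makes only p30 beside a second, deleted allele, so *Tet2* was the gene that differed by design. The floxed alleles were removed by *Mx1-Cre*, a recombinase driven by an interferon-responsive promoter and switched on with poly(I)-poly(C). The marrow had first been transplanted into irradiated female C57BL/6J.SJL recipients that were 10 to 12 weeks old, and the sort kept CD45.2+ cells, the marker of the donors, which leaves host blood cells out. *Mx1-Cre* is not specific to myeloid cells, so lymphoid cells of the graft can carry the same deletions.

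Plasma cells are the end stage of the B lineage and secrete antibody. IRF4 and Blimp-1 (encoded by *Prdm1*) switch off the B cell programme, and XBP1 enlarges the endoplasmic reticulum in which antibody chains are folded. Long-lived plasma cells reside in the bone marrow, where the receptors BCMA and TACI receive survival signals from the ligands BAFF and APRIL. Plasma cells carry little B220, the marker used in the sort. Several of these genes also work in other cells: *Xbp1* serves many secretory cells, and *Irf4* and *Prdm1* act in T cells and some myeloid cells as well.

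*Jchain*, which serves antibody assembly, had lower levels in every Tet2-/- mouse than in any Tet2+/+ mouse, at 32.8 ± 9.84 CPM (counts relative to library size, scaled by edgeR's TMM factors) against 133 ± 33.5 in the Tet2+/+ mice (mean ± SD, n = 3 each). *Derl3* and *Irf4* also had all 3 Tet2-/- mice below all 3 Tet2+/+ mice. *Xbp1* had the opposite sign, at 228 ± 65.8 against 156 ± 21 CPM. *Tnfrsf13b* stood at 71.9 ± 15 and 69.9 ± 24.9 CPM in Tet2+/+ and Tet2-/- mice, and the remaining members varied more among mice of 1 genotype than the group means differed, or were too low to compare. By edgeR's quasi-likelihood test, 0 of the 10 members passed an adjusted p of 0.05, where 10 of all 22170 genes tested did so with lower levels in Tet2-/- mice (0.0451%). DESeq2 on the same counts called 2 members lower, *Jchain* and *Mzb1*, where it called 1.47% of all genes tested lower.

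The libraries held between 13036643 and 32855343 estimated counts, the highest in Tet2-/- mouse 5, and the count of 3 taken as the floor of detection equalled 0.0949 to 0.211 CPM. *Tet2*, read over the whole gene including exons that the deletion leaves, stood at 83.8 ± 13 CPM in Tet2+/+ and 95.8 ± 16.0 CPM in Tet2-/- mice (n = 3 each), so this level does not check the labels. Tet2+/+ mouse 19 stood apart for erythroid markers, whose summed level was 351 TPM (a level per transcript length and library) against 12.5 to 38.2 TPM in the other 5 mice. The 10 myeloid marker genes summed to 5722, 5407 and 4984 TPM in Tet2+/+ mice 19, 23 and 24 and to 7510, 6081 and 6273 TPM in Tet2-/- mice 5, 7 and 8. These sums were separated, but without *Ly6c2* the other 9 markers, of which 4 were lower by sign, summed to 3648, 3376 and 3518 TPM in Tet2+/+ and 3885, 3446 and 2938 TPM in Tet2-/- mice, which overlap, and their part in the members' levels was not tested. The 10 plasma cell genes summed to between 151 and 228 TPM in Tet2+/+ mice and between 86.8 and 152 TPM in Tet2-/- mice. Where the RNA of a few cells is mixed into a bulk library, fewer cells of a type and less RNA per cell cannot be told apart.

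The promoters of the 3 members whose genotypes did not overlap are shown to set their base composition side by side. TET enzymes act on cytosine in CpG pairs, which are in capitals here. Each window runs from 250 bases before to 50 after a RefSeq start (GRCm38.p6), 5′ to 3′ on the gene's own strand: *Jchain* at chr5:88527848-88528147 (minus strand), *Irf4* at chr13:30748983-30749282 (plus strand) and *Derl3* at chr10:75893148-75893447 (plus strand).
Jchain: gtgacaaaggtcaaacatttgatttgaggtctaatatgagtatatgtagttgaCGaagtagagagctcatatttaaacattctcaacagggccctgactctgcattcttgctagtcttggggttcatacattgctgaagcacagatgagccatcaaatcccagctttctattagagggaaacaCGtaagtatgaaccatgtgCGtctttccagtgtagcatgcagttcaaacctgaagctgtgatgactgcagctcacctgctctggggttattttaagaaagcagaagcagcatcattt
Irf4: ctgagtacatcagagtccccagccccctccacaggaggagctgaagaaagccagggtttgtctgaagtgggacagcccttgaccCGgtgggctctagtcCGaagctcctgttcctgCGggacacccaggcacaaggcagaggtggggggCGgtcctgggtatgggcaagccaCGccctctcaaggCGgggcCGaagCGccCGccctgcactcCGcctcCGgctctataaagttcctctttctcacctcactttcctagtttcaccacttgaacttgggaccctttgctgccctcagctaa
Derl3: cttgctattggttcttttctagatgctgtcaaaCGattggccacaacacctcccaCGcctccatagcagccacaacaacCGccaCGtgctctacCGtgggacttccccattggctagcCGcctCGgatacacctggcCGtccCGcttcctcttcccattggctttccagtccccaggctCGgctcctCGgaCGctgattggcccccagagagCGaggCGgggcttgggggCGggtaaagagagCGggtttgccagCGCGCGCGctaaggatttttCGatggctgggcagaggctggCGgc

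*Jchain* had 3 CpG pairs in this window, *Irf4* 11 and *Derl3* 22, where the median of all 32851 windows was 7 and the quartiles were 3 and 20. The 3 genes with separated values therefore ran from the lower quartile to above the upper one. Among the other members with a window, *Prdm1* had 20, *Sdc1* 14, *Xbp1* 10, *Tnfrsf13b* and *Pou2af1* 8 each and *Tnfrsf17* 6. A window was at hand for 9 of the 10 members, *Mzb1* being the exception.

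Short motifs were searched on both strands. The letters TTNNGCAA, a C/EBP-type motif, were found in *Jchain*, *Sdc1*, *Xbp1* and *Pou2af1* (10.8% of all windows hold them). GAAAGTG, a motif of the Blimp-1 and IRF type, was found in *Irf4* and *Tnfrsf17* (4.81% of all windows), and TGACGTGG, an element of the unfolded protein response, in *Pou2af1* (0.676%). ATGCAAAT, the octamer bound by OCT factors with the coactivator OBF-1, was in no member's window and in 1.74% of all windows. No 2 matches overlapped, and a match or its absence describes only these letters.

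*Jchain* (ENSMUSG00000067149, chromosome 5, 88519809 to 88527891) encodes the J chain, a small protein that links IgM into pentamers and IgA into dimers. It was measured at 98.5, 165 and 135 CPM in Tet2+/+ mice 19, 23 and 24 and at 44.1, 27.6 and 26.6 CPM in Tet2-/- mice 5, 7 and 8. The lowest Tet2+/+ mouse was thus above the highest Tet2-/- mouse. The mean was 4.06-fold lower in Tet2-/- mice, with a log2 fold change of -2.02 (SE 0.29, edgeR p = 0.000184, adjusted p = 0.116, exact two-sided permutation p = 0.1). An exact p of 0.1 is the smallest that 3 against 3 mice allow. DESeq2 gave an adjusted p of 2.00e-07. With any 1 mouse left out the log2 fold change lay between -2.30 and -1.86, and edgeR's adjusted p between 0.135 and 0.393.

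Beside the immunoglobulin constant genes, which include classes other than IgM and IgA, *Jchain* kept nearly the same share in every mouse. The summed level of 12 immunoglobulin constant genes was 1251, 2135 and 1883 TPM in the Tet2+/+ mice and 563, 343 and 310 TPM in the Tet2-/- mice. *Jchain* TPM amounted to 4.32%, 4.83% and 4.34% of that sum in the Tet2+/+ mice and 4.39%, 4.51% and 4.98% in the Tet2-/- mice, so the highest of 6 mice was 1.15 times the lowest. For the other 9 members the same quotient of highest to lowest mouse was between 4.74 (*Pou2af1*) and 19.4 (*Prdm1*). Because the sum was lower in Tet2-/- mice, a member at similar levels in both genotypes, such as *Tnfrsf13b*, also had a high quotient (7.43). The quotients of *Tnfrsf17* (8.85) and *Sdc1* (6.38) rest on few reads. These quotients were computed after the values had been seen and were not tested. Of 13838 genes compared over the 6 mice, the variable segment *Igkv8-19* had the profile most like *Jchain* (Pearson r = 0.997 on log2(CPM + 1)), followed by *Gm31026* (r = 0.993). Immunoglobulin genes made up 20 of the 97 genes with r of 0.95 or more, 20.6%, and 0.939% of all genes compared. All points of such a profile share 6 libraries that fall into 2 groups, and near-identical immunoglobulin segments can trade reads.

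**Figure D1:**
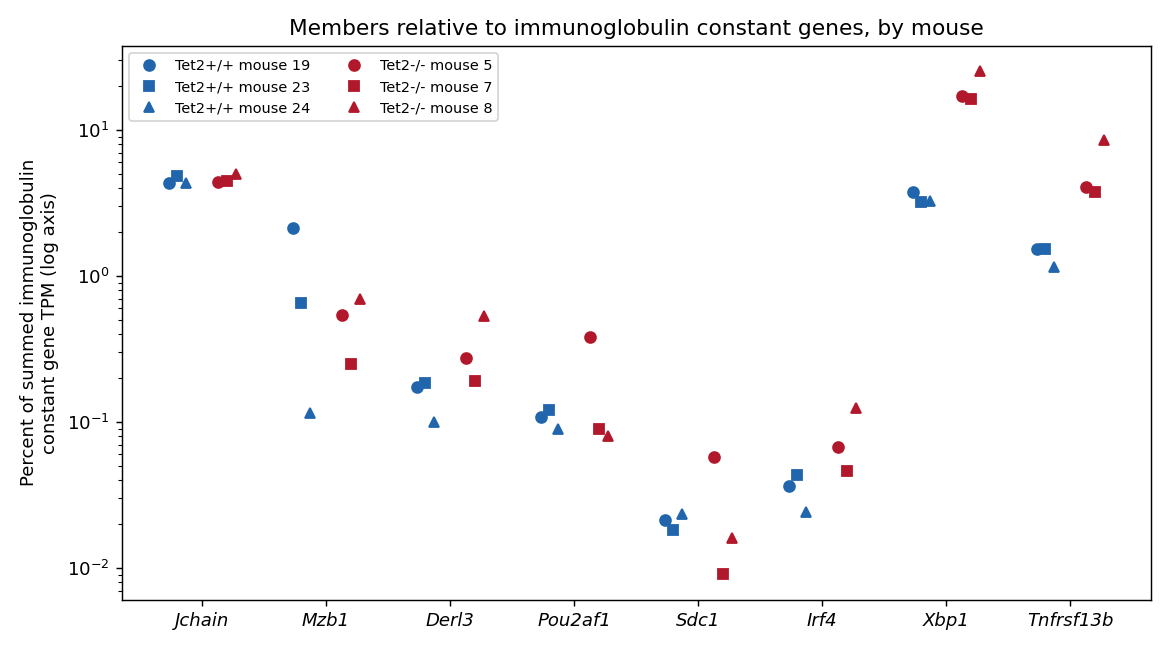
Level of 8 members as a percent of the summed TPM of 12 immunoglobulin constant genes in the same mouse (log axis). Blue points are the Tet2+/+ mice and red points the Tet2-/- mice, with 1 marker shape per mouse. *Jchain* lies between 4.32% and 4.98% in all 6 mice, while *Xbp1* lies between 3.20% and 3.74% in Tet2+/+ mice and between 16.4% and 25.4% in Tet2-/- mice. The sum itself was lower in every Tet2-/- mouse, which raises the percent of a gene at similar levels in both genotypes. *Xbp1* itself overlapped, at 46.8 to 68.2 TPM in Tet2+/+ and 56.1 to 96.5 TPM in Tet2-/- mice.

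*Mzb1* encodes a chaperone partner in the endoplasmic reticulum that helps antibody assembly. Its levels were 34.7, 16.1 and 2.53 CPM in Tet2+/+ mice 19, 23 and 24, and 4.18, 1.16 and 2.71 CPM in Tet2-/- mice 5, 7 and 8. Mice 19 and 23 were above every Tet2-/- mouse, and mouse 24 was within the Tet2-/- range. The group means were 17.8 ± 16.1 and 2.68 ± 1.51 CPM (SD, n = 3), with a log2 fold change of -2.71 (SE 0.90, edgeR p = 0.0192, adjusted p = 0.546, exact permutation p = 0.3). DESeq2 gave an adjusted p of 0.0480 on these counts and 0.0524 on length-scaled counts. Without mouse 19, the mouse with high erythroid markers, the log2 fold change was -1.79 (edgeR adjusted p = 0.637). *Mzb1* did not keep step with *Jchain*: relative to *Jchain* its TPM ranged from 0.0266 (mouse 24) to 0.495 (mouse 19) among Tet2+/+ mice, and from 0.0556 to 0.140 among Tet2-/- mice. A gene model named SPATA24, annotated on the same strand, covers 695 exonic bases of *Mzb1* (57.2%) and has no values here, so reads from it could be counted in *Mzb1*.

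*Derl3* (chromosome 10, 75893413 to 75895941) encodes Derlin-3, which helps to draw misfolded proteins out of the endoplasmic reticulum for degradation. Levels of 3.71, 2.62 and 2.18 CPM in the Tet2+/+ mice stood against 1.52, 0.579 and 0.922 CPM in the Tet2-/- mice. All Tet2-/- mice were lower, and mice 5 and 24 were the nearest pair. The log2 fold change was -1.47 (SE 0.48, edgeR p = 0.0185, adjusted p = 0.544, DESeq2 adjusted p = 0.161, exact permutation p = 0.1). On length-scaled counts it was -0.94 with either tool, and the reads behind the gene were spread over several annotated transcripts. The coding transcript Derl3-201 took 88.5%, 43.3% and 71.7% of the reads in Tet2+/+ mice and 59.2%, 0% and 0% in Tet2-/- mice 5, 7 and 8, where the reads of a gene this low were few.

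*Jchain*, *Mzb1* and *Derl3*, 3 of the 10 members, had an unadjusted edgeR p under 0.05 with lower levels in Tet2-/- mice, and 0 members had one with higher levels. Of all genes tested, 5.12% had such a p with lower and 3.0% with higher levels. The members with separated groups were 3 lower (*Jchain*, *Irf4*, *Derl3*) and 0 higher, where 7.94% of all genes tested were separated with lower and 6.41% with higher levels in Tet2-/- mice. By sign alone 9 members were lower and 1 was higher, and their median log2 fold change was -0.94 beside 0.0016 for all genes tested. The members were chosen with earlier results of these data known, so these counts are a description and no independent evidence.

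**Figure D2:**
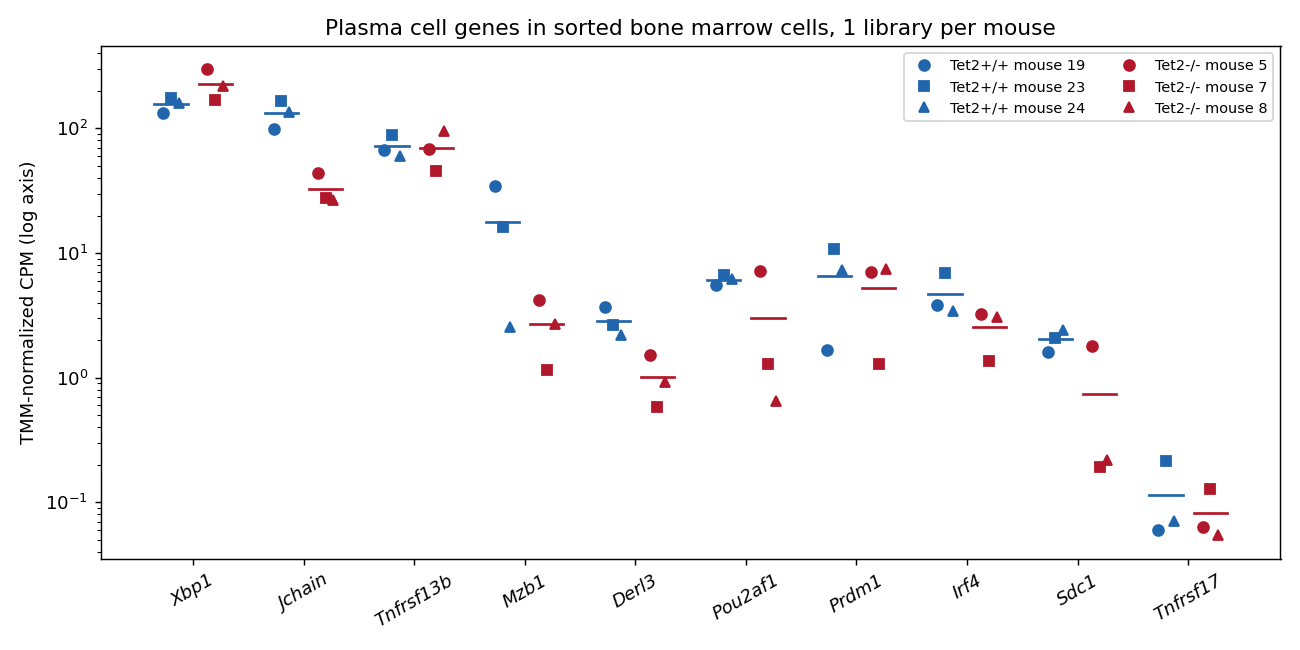
TMM-normalized CPM of the 10 plasma cell genes in each mouse on a log axis, ordered by mean TPM, with 1 marker shape per mouse and a bar at the group mean (n = 3). *Jchain*, *Derl3* and *Irf4* have no overlap between blue Tet2+/+ and red Tet2-/- points, and mouse 5 lies with the Tet2+/+ mice for *Pou2af1* and *Sdc1*.

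Among the transcription factors, *Xbp1* (ENSMUSG00000020484, chromosome 11, 5520659 to 5525893) was the most abundant member by level per length. The libraries showed it at 134, 175 and 160 CPM in the Tet2+/+ mice and at 298, 167 and 219 CPM in Tet2-/- mice 5, 7 and 8. Mouse 7 was within the Tet2+/+ range and the other 2 Tet2-/- mice were above it. This gave a log2 fold change of 0.55 (SE 0.25, edgeR p = 0.0606, adjusted p = 0.634, exact permutation p = 0.2). It was 0.30 without mouse 5, the highest mouse, and 0.73 without mouse 7, the lowest Tet2-/- mouse. The genotypes were separated without mouse 7 or without mouse 23, and without mouse 7 the unadjusted edgeR p was under 0.05 (adjusted p = 0.466). Because *Jchain* had the opposite sign, the order of these abundant members differed between genotypes. The TPM of *Jchain* was 1.15, 1.51 and 1.32 times that of *Xbp1* in the Tet2+/+ mice and 0.257, 0.275 and 0.196 times that of *Xbp1* in the Tet2-/- mice, a quotient seen before it was chosen and given without a test.

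The main transcript of *Xbp1* kept a similar share of its reads, while minor ones varied more. Xbp1-201 took 78.4% ± 0.846 of the gene's reads in Tet2+/+ and 79.0% ± 0.785 in Tet2-/- mice (SD, n = 3), a difference of 0.59 percentage points (exact permutation p = 0.4, adjusted over the 2 transcripts tested 0.4). Among the minor transcripts, the share of one ran from 6.02% (mouse 24) to 10.3% (mouse 19) and that of another from 2.38% (mouse 19) to 3.73% (mouse 23). IRE1, a sensor of endoplasmic reticulum stress, removes a very short intron from *Xbp1* RNA to make the active factor. The shortest intron among the annotated transcripts was 300 bases, so these values do not separate the form that IRE1 has spliced from the other.

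*Irf4* (chromosome 13, 30749226 to 30766976) encodes the factor that commits B cells to the plasma cell fate. It was measured at 3.83, 6.91 and 3.45 CPM in the Tet2+/+ mice and at 3.26, 1.35 and 3.09 CPM in the Tet2-/- mice. The groups were separated, with mouse 24 at 3.45 and mouse 5 at 3.26 CPM on either side of the gap. Its log2 fold change was -0.88 (SE 0.48, edgeR p = 0.109, adjusted p = 0.684, exact permutation p = 0.1), and it was -0.52 without mouse 23 and -0.57 without mouse 7.

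*Prdm1* encodes Blimp-1, the repressor that ends the B cell programme. Mouse by mouse it stood at 1.67, 10.8 and 7.32 CPM in Tet2+/+ mice 19, 23 and 24 and at 7.09, 1.29 and 7.49 CPM in Tet2-/- mice 5, 7 and 8. Each genotype had 1 low mouse (19 and 7) and 2 mice above 7 CPM, so the groups overlapped throughout. The log2 fold change was -0.31 (SE 0.81, edgeR adjusted p = 0.949), and it was 0.21 without mouse 23 and 0.14 without mouse 7.

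*Pou2af1* encodes OBF-1, a coactivator of OCT factors at immunoglobulin promoters. Its levels were 5.56, 6.64 and 6.20 CPM in the Tet2+/+ mice, and 7.15, 1.29 and 0.651 CPM in Tet2-/- mice 5, 7 and 8. Mouse 5 was above every Tet2+/+ mouse, and mice 7 and 8 were below them all. Its log2 fold change was -1.0 (SE 0.81, edgeR adjusted p = 0.797) over all mice, -2.66 without mouse 5, -0.63 without mouse 7 and -0.53 without mouse 8.

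On the cell surface, *Sdc1* encodes syndecan-1 (CD138), the proteoglycan by which plasma cells are sorted. It was measured at 1.62, 2.09 and 2.39 CPM in the Tet2+/+ mice and at 1.80, 0.193 and 0.217 CPM in Tet2-/- mice 5, 7 and 8, which were 27, 39, 34, 57, 3 and 4 reads. Mice 7 and 8 were at or near the floor of 3 reads, and mouse 5 was within the Tet2+/+ range. The log2 fold change was -1.39 (SE 0.85, edgeR adjusted p = 0.724), and leaving out mouse 5, 7 or 8 gave -3.27, -0.96 and -0.98. *Sdc1* and *Pou2af1* were the member pair most alike over the 6 mice (r = 0.97, a description over shared libraries).

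In Tet2-/- mouse 5, *Sdc1* was thus within and *Pou2af1* above the Tet2+/+ range, while *Jchain* and the summed immunoglobulin constant genes were below it. Mouse 5 had the highest level of its group for 7 of the 10 members and the lowest for 0, and mouse 7 had the lowest for 7. Without mouse 5, 5 members had lower levels at an unadjusted edgeR p under 0.05 (*Jchain*, *Mzb1*, *Sdc1*, *Pou2af1* and *Derl3*), where 5.54% of all genes tested without that mouse did. As many were then separated (*Jchain*, *Sdc1*, *Irf4*, *Pou2af1* and *Derl3*), where 13.6% of all genes tested were, a larger background share than with 3 against 3 mice. The median of the 9 members tested without mouse 5 was -1.91, while it was -0.63 without mouse 7 (9 members) and -0.82 without mouse 8 (10 members). Without mouse 19, *Jchain* alone had such a p, where 4.98% of all genes tested had one with lower levels. Mouse 5 also had the largest library, and the part of depth in these differences was not tested.

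**Figure D3:**
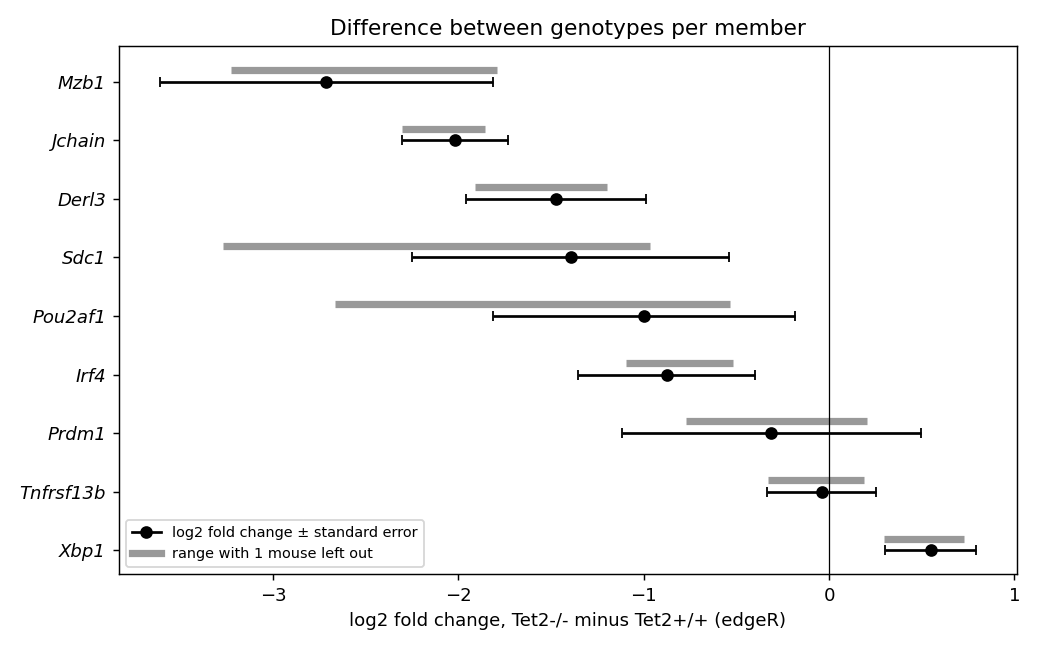
Difference between genotypes for 9 members as the edgeR log2 fold change (Tet2-/- minus Tet2+/+, black points with standard error bars), with a gray bar for the range when each mouse is left out in turn. *Tnfrsf17* is not drawn because its reads were near the floor. The bars of *Sdc1* and *Pou2af1* extend to -3.27 and -2.66, and those of *Prdm1* and *Tnfrsf13b* cross 0.

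The receptors for BAFF and APRIL differed in abundance. *Tnfrsf13b* encodes TACI, which is also found on B cells, and was measured at 67.3, 88.6 and 59.7 CPM in Tet2+/+ and at 68.9, 45.5 and 95.3 CPM in Tet2-/- mice. The lowest and the highest of the 6 mice were both Tet2-/-. Its log2 fold change was -0.04 (SE 0.29, edgeR adjusted p = 0.985, exact permutation p = 1.0), and it was 0.12 without mouse 23 and 0.19 without mouse 7. Its main transcript, Tnfrsf13b-201, took 94% ± 1.70 of the reads in Tet2+/+ and 91.7% ± 2.98 in Tet2-/- mice (SD, n = 3, exact permutation p = 0.3, adjusted 0.4). *Tnfrsf17* encodes BCMA, the receptor typical of mature plasma cells, and had 1, 4 and 1 reads in the Tet2+/+ mice and 2, 2 and 1 in the Tet2-/- mice. A difference in *Tnfrsf17* was not detectable at this depth.

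Ordered by mean TPM over the 6 mice, the levels were 68.0 for *Xbp1*, 49.1 for *Jchain*, 22.6 for *Tnfrsf13b*, 8.17 for *Mzb1*, 1.98 for *Derl3*, 1.39 for *Pou2af1*, 0.763 for *Prdm1*, 0.463 for *Irf4*, 0.250 for *Sdc1* and 0.0916 for *Tnfrsf17*. In the Tet2+/+ mice *Jchain* came first with 79.6 ± 24.6 TPM and *Xbp1* followed with 59.0 ± 11.0 TPM. *Jchain* was the higher within each of these mice, at 54.0, 103 and 81.7 TPM against 46.8, 68.2 and 61.9 TPM. The order of genes was not tested. In the Tet2-/- mice *Xbp1* came first with 77.1 ± 20.2 TPM, above *Tnfrsf13b* with 20.7 ± 6.98 and *Jchain* with 18.5 ± 5.38 TPM (SD, n = 3). *Jchain* was above *Tnfrsf13b* in mice 5 and 7 and below it in mouse 8. Below these, the ranges over the 6 mice overlapped between each neighbouring pair from *Mzb1* to *Tnfrsf17*.

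The genes around the members were described from lists, and of the 4 lists on secretion, plasma cells, BAFF and APRIL, and the Blimp-1 network, 0 of 68 genes passed an adjusted p of 0.05 with edgeR or with DESeq2 on the same counts, while 6 had an unadjusted edgeR p under 0.05, all higher in Tet2-/- mice (3.0% of all genes tested were higher at that threshold). Of 34 genes of the endoplasmic reticulum and secretory pathway, many of which XBP1 is known to drive, 23 were higher and 11 lower by sign, with a median log2 fold change of 0.16. That median was 0.044 without mouse 5, 0.049 without mouse 8, 0.072 without mouse 24 and 0.0024 when scaled by library size alone. The 3 with an unadjusted p under 0.05 were *Dnajb11* (0.47, SE 0.18), an HSP40 cochaperone, and *Herpud1* (0.40, SE 0.15) and *Derl1* (0.54, SE 0.20), both of the degradation route in which *Derl3* also works. Each of these 3 had all Tet2-/- mice above all Tet2+/+ mice, opposite in sign to *Derl3*: *Derl1* was measured at 164, 152 and 106 CPM in Tet2+/+ and at 191, 209 and 212 CPM in Tet2-/- mice. The most abundant chaperones overlapped, with *Hspa5* (BiP) at a log2 fold change of 0.31 (SE 0.25) and *Hsp90b1* at -0.08 (SE 0.25). The largest differences of either sign were those of *Creld2* (0.67, SE 0.31) and of the lectin chaperone *Calr* (-0.55, SE 0.25), and neither passed (edgeR adjusted p = 0.643 and 0.640). *Calr* had all Tet2-/- mice below all Tet2+/+ mice. It was the 1 gene of this list separated lower, and 6 were separated higher, where 7.94% and 6.41% of all genes tested were.

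Of 12 other plasma cell genes, 7 were lower and 5 higher by sign, with a median of -0.09 (-0.38 without mouse 5 and -0.0098 without mouse 23). *Txndc5* and *Lman1*, both of the secretory route and the most abundant of this list, had log2 fold changes of -0.32 (SE 0.52) and -0.05 (SE 0.25). The signalling adaptor *Lax1* had the lowest at -0.86 (SE 0.45, edgeR adjusted p = 0.672). *Fkbp11*, a folding enzyme, had the highest at 1.96 (SE 0.74, edgeR adjusted p = 0.599), with 1.62, 1.12 and 3.17 CPM in Tet2+/+ mice and 15.8, 4.05 and 2.98 CPM in mice 5, 7 and 8. Mouse 5 carried most of that difference, and mouse 8 was within the Tet2+/+ range.

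Of 10 genes of BAFF and APRIL signalling, 8 were higher and 2 lower by sign, with a median of 0.27 (0.09 when scaled by library size alone). *Tnfsf13*, which encodes APRIL, was measured at 8.20, 4.18 and 5.07 CPM in Tet2+/+ and at 12.0, 9.58 and 9.01 CPM in Tet2-/- mice, and the groups were separated (log2 fold change 0.81, SE 0.33, edgeR adjusted p = 0.604). *Mcl1*, a survival factor on which plasma cells depend through BCMA and which myeloid cells use too, had a log2 fold change of 0.48 (SE 0.18, edgeR adjusted p = 0.592). *Tnfsf13b*, encoding BAFF, had the highest value at 1.94 (SE 1.03) and varied from 1.61 to 9.57 CPM in Tet2+/+ and from 2.22 to 31.5 CPM in Tet2-/- mice. The adaptor *Traf6* had the lowest at -0.30 (SE 0.27), and *Camlg*, which binds TACI, had 0.06 (SE 0.27).

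Of 12 genes in the network around Blimp-1, 7 were lower and 5 higher by sign, 0 had an unadjusted edgeR p under 0.05, and the median was -0.27 (-0.077 without mouse 19, 0.02 without mouse 7). *Myc* and *Pax5*, both repressed by Blimp-1, had log2 fold changes of -0.52 (SE 0.32) and -0.70 (SE 1.02), and *Bcl6*, which opposes Blimp-1, had 0.58 (SE 0.30). DESeq2 on length-scaled counts called *Pax5* lower (-3.84, adjusted p = 0.0324), where DESeq2 on the same counts gave it an adjusted p of 0.939. *Spi1*, the myeloid and B cell factor PU.1, had 0.31 (SE 0.23).

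Markers of other cells were read beside the members. Of 12 immunoglobulin constant genes 11 were lower by sign and 10 had an unadjusted edgeR p under 0.05, with a median log2 fold change of -1.96, while edgeR called 0 and DESeq2 called 6 at an adjusted p of 0.05. *Igkc* (-2.15, SE 0.38, edgeR adjusted p = 0.186) and *Ighm* (-1.45, SE 0.20, adjusted p = 0.108) were the most abundant, *Ighg3* had the lowest value at -4.05 (SE 1.14), and *Ighe*, with reads almost only in mouse 5, was the single one with the higher sign. The 10 B cell markers, summed, were at 30.5, 47.6 and 14.9 TPM in Tet2+/+ mice and at 28.2, 13.8 and 27.7 TPM in Tet2-/- mice, so the groups overlapped. Of them 9 were lower by sign, 0 had an unadjusted edgeR p under 0.05 and 0 were called by DESeq2 on the same counts (1, *Pax5*, on length-scaled counts). Their median was -0.69, and it moved with the mice, from -1.76 without mouse 5 to -0.32 without mouse 23 and -0.26 without mouse 8. The immunoglobulin constant genes had a median of -2.83 without mouse 5. *Cd79b* had a log2 fold change of 0.09 (SE 0.54), *Cd79a* -0.71 (SE 0.69) and *Vpreb3*, with values near the floor, -1.70 (SE 0.88). The part of cells of the B lineage in the members' differences was not tested.

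**Figure D4:**
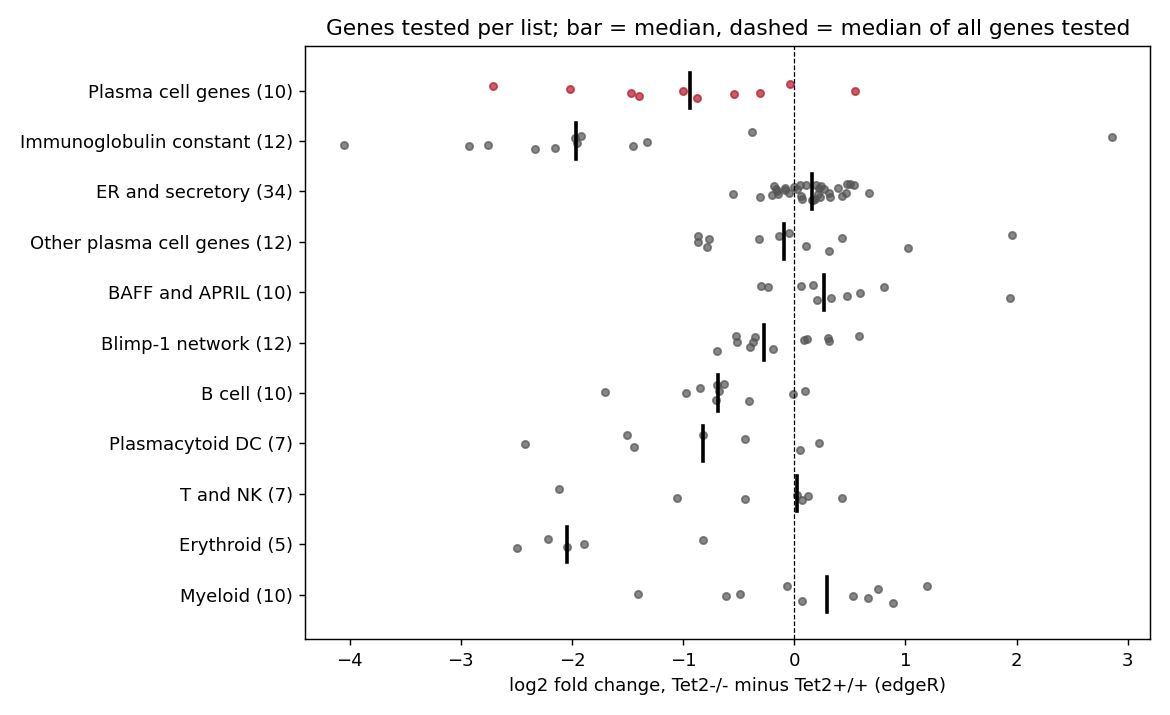
edgeR log2 fold change (Tet2-/- minus Tet2+/+) of every tested gene in each list, with the number tested in parentheses, black bars for list medians and a dashed line for the median of all genes tested (0.0016). Plasma cell genes (red, median -0.94) and immunoglobulin constant genes (median -1.96) lie mostly below 0, and the secretory genes (median 0.16) lie on both sides of it.

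Plasmacytoid dendritic cells, which like plasma cells are rich in secretory machinery, had 7 of 8 markers tested, and 5 were lower by sign with a median of -0.82, and leaving out mouse 23, 7 or 5 gave -0.30, -0.55 and -1.39. *Siglech*, their surface lectin, was separated (-2.42, SE 0.42, edgeR adjusted p = 0.185, also called by DESeq2), *Bst2* had 0.05 (SE 0.40) and *Tcf4* 0.22 (SE 0.61). *Pacsin1* was separated too (-1.50, SE 0.62), with no mouse above 1.14 CPM. *Siglech* and *Pacsin1* were the 2 with an unadjusted edgeR p under 0.05, where 5.12% of all genes tested were lower at that threshold and 7.94% were separated lower. Among 7 T and NK markers the median was 0.03 (-0.75 without mouse 7), with *Nkg7* at 0.43 (SE 0.33), *Cd3d* at 0.03 (SE 0.64) and *Ncr1* at -2.12 (SE 0.48, edgeR adjusted p = 0.321), which DESeq2 called as well. All 5 tested erythroid markers of 6 were lower by sign, with a median of -2.04 and of 0.69 without mouse 19. *Hbb-bt* (-2.21, SE 1.5) and *Hbb-bs* (-2.04, SE 1.23) followed that mouse, *Alas2* was at -2.49 (SE 0.84) with no mouse above 0.359 CPM, and *Hba-a1* was at -0.82 (SE 1.25). The 10 myeloid markers had a median of 0.30 (0.12 without mouse 5, 0.57 without mouse 8), with *Mpo* at -0.49 (SE 0.25), *Cd34* at -1.41 (SE 0.50), *Elane* at 1.19 (SE 0.64) and *Ly6c2* at 0.89 (SE 0.27), which DESeq2 called. No gene of these lists passed edgeR's adjusted p of 0.05, and their part in the members' levels was not tested.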

How the data were processed

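Libraries were made with an unstranded TruSeq kit, and the authors quantified them with Salmon (version 0.12.0, per the labels, on GRCm38.p6). The deposited tables give, per transcript, an estimated count, a TPM value and an effective length computed by the authors. Here the estimated counts were summed per gene through GENCODE M21 (112 of 136288 transcripts, holding at most 0.0416% of the counts, had no gene there) and rounded. A gene was tested if its library-size-normalized counts reached a sum of 10. edgeR (4.0.16, TMM, quasi-likelihood test, 3 against 3 mice, no covariates, Benjamini-Hochberg over all 22170 genes) was the main test. DESeq2 (1.42.0), with which the study's methods work, was an alternative, as were length-scaled counts made from the deposited TPM and effective lengths, other size factors, other filters and leaving out each mouse. Scripts were tested on simulated data with a single fixed dispersion, which does not show how either tool behaves at the spread of these data. Standard errors were the log2 fold change divided by the root of the F statistic, permutation tests used log2(CPM + 1), and floors cover counting error only. The dispersion was a biological coefficient of variation of 43.6%.

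The members and lists were chosen with earlier results of these data known. Named were all members, the 2 most abundant genes and the genes of lowest and highest fold change in each list, and for likeness the 2 genes of highest r. List genes with an unadjusted p under 0.05 and the member pairs were named after their values were seen.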

Additional observations from a re-analysis of the deposited data

How the results depend on the processing

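At an adjusted p of 0.05, edgeR called 10 genes lower and 0 higher in Tet2-/- mice, with 664 genes higher at an unadjusted p under 0.05. DESeq2 called 326 lower and 59 higher on the same counts and 322 and 64 on length-scaled counts. edgeR called 5 lower on length-scaled counts, 62 lower and 4 higher without a filter, and 1 higher with RLE size factors and with filterByExpr. With 1 mouse left out it called 0 to 7 lower. Of the members, 0 were called lower by edgeR, 2 by DESeq2 (*Jchain*, *Mzb1*), 1 by DESeq2 on length-scaled counts and 1 by edgeR without a filter (both *Jchain*). Members at an unadjusted p under 0.05 numbered 3 lower (1 to 5 with 1 mouse left out) and 0 higher (0 to 1, and 1, *Xbp1*, with DESeq2 or no filter). Separated members numbered 3 lower (3 to 5 with 1 mouse left out) and 0 higher (0 to 1). Of all genes tested, 7.94% were separated lower with all mice and 13.6% without mouse 5, so these counts do not compare directly. Of 136 member fold changes under the alternatives 132 kept their sign, the exceptions being *Prdm1* (0.21 without mouse 23, 0.14 without mouse 7, range -0.77 to 0.21) and *Tnfrsf13b* (0.12 and 0.19, range -0.33 to 0.19). With 1 mouse left out, list medians changed sign for the Blimp-1 network (-0.36 to 0.021, the latter without mouse 7; -0.41 when scaled by library size alone), T and NK markers (-0.75 without mouse 7 to 0.40) and erythroid markers (-2.57 to 0.69, the latter without mouse 19). Scaling by library size alone moved the median of all genes to -0.17. The cause of these shifts was not tested. No paired analysis was possible because the genotypes share no mouse numbers. Depth limits *Tnfrsf17*, *Sdc1* and the transcripts of *Derl3*, which rest on few reads.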

Other observations

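The members did not share 1 profile over the 6 mice. As Pearson r on log2(CPM + 1), a description over libraries that all genes share and that fall into 2 groups, *Mzb1* and *Derl3* stood at 0.88, *Jchain* and *Sdc1* at 0.87, *Jchain* and *Derl3* at 0.86, *Jchain* and *Mzb1* at 0.62 and *Jchain* and *Xbp1* at -0.48. Outside the members, the 2 genes most like each were *Phf11a* and *Ctr9* for *Mzb1* (0.995 and 0.986), *C4a* and *Prpf40b* for *Sdc1* (0.992 and 0.991), *Ei24* and *Cdh1* for *Prdm1* (0.998 and 0.995), *Dhx8* and *Uck1* for *Xbp1* (both 0.988), *Mrps6* and *Tep1* for *Tnfrsf13b* (0.994 each), *Atm* and *Ttc21b* for *Irf4* (0.998 and 0.990), *Nudt22* and *Plcxd2* for *Pou2af1* (0.998 and 0.995) and *Creb3l3* and *Tmprss3* for *Derl3* (both 0.980). For *Tnfrsf17*, which had at most 4 reads per mouse, they were *Fuz* and *Gm47583* (0.984 and 0.973). The number of genes with r of 0.95 or more ran from 3 for *Tnfrsf17* to 224 for *Tnfrsf13b*.

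The 211 immunoglobulin genes and gene segments tested summed to 2044, 3090 and 2761 CPM in the Tet2+/+ mice and to 936, 653 and 558 CPM in the Tet2-/- mice.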
